A study of Mus musculus with 23 samples.

Results

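The comparison of WT females with WT males on a low-calcium diet was taken across the autosomal genes of a table of normalized read counts. A gene was a member if its normalized count was 10 or more in 2 or more of the 23 libraries of the series, which kept 15638 of 21402 genes, and if it was placed on an autosome, which left 15056. The libraries were those of 3 WT female mice, numbered 16, 17 and 18, and of 3 WT male mice, numbered 8, 9 and 26. Each library was taken as that of 1 mouse and as 1 replicate. All mice were C57BL/6 and 5 months old, and these 6 ate a diet with 0.01% calcium for 2 weeks. The samples were total RNA from the shafts of the tibia and femur after the marrow had been flushed out and surface cells had been digested away, so that the remaining bone was enriched for osteocytes. The series asks how the loss of FNDC5, the precursor of the exercise hormone irisin, changes bone in each sex. Its other groups served as points of reference and in the shared estimate of the spread. The points of reference were 3 WT females and 3 WT males fed 0.6% calcium, the control diet, and mice with a global FNDC5 knockout (KO) on the low-calcium diet (2 females, 3 males), of the same age and strain. KO mice on the control diet (3 females, 3 males) entered the fit, and their sexes were not compared. The KO removes the gene in every tissue, and no group limits the loss to bone.

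Osteocytes are former osteoblasts buried in the mineral they made, and they govern its turnover. They produce RANKL, which drives the formation of osteoclasts, and sclerostin, which restrains bone formation by blocking Wnt signals, and they can resorb and replace the matrix around their own lacunae. When dietary calcium is short, parathyroid hormone rises and acts through its receptor on osteoblasts and osteocytes to raise RANKL and release calcium from bone, and estrogen and androgen act on the same cells.

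The 6 libraries differed in quality in ways that bear on every value below. The reads behind the normalized counts numbered 11256675, 7217601 and 18606399 in females 16, 17 and 18 and 33352631, 21702255 and 24307993 in males 8, 9 and 26, so fewer reads were counted in each female than in any male. The methods of the study describe a low share of mapped reads in all 3 of these females, with bacterial RNA as a possible source, and no reads were filtered out. Sex and low mapping therefore cannot be told apart in this comparison. The library of male 26 lay close to a mean of males 8 and 9 weighted 47 to 53. Over genes, the median of its squared distance from that mean was 2.15 times what counting noise alone gives, while 18 other libraries, each set against the best weighted mean of its group mates, lay at 2.60 to 13.5 times. *Xist*, the RNA that coats the inactive X chromosome, was at 57.7 and 843 in males 8 and 9 and at 416 in male 26, beside 474 for the weighted mean. WT control female 1 stood to her group mates in the same way, at 2.14 times, and KO control male 27 lay at the lower end of the others, at 2.60 times. Whether these libraries are separate mice was not tested, and counts are therefore given with all libraries and without mice 1, 26 and 27, which is called the reduced set. In the KO reference group, the library labelled female 5 held 4 Y-linked RNAs at 27.3% to 40.4% of the median male level, among them *Ddx3y* at 1030 against 2.63 in KO female 6, so KO counts and medians are given without it as well.

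Markers of osteocytes were present in all 6 libraries. *Dmp1*, which marks osteocytes and drives mineralization of their matrix, was at 30455, 9556 and 20081 in the females and 6417, 8853 and 7302 in the males. *Sost*, which encodes sclerostin, was at 15856, 3678 and 6403 and 4665, 4437 and 4603, and the groups overlapped. Blood cell RNA was present too: 28 neutrophil genes took 1.55% to 1.68% of all counts in the females and 2.56% to 2.83% in the males, beside 0.403% to 0.656% and 0.259% to 0.289% for 16 osteocyte genes. In RNA of whole bone, fewer cells of a type and less RNA per cell cannot be told apart.

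Females had more RNA of bone matrix, collagen, vessels, fat and interferon-induced genes, and less RNA of neutrophils, red cell precursors and dividing cells. Of the 15056 genes, 2584 were higher in females (17.2%) and 2230 were lower (14.8%) at an adjusted p under 0.05 by limma, a linear model on log2(count + 1) fitted to all 23 libraries and adjusted over all 15638 genes. Without mice 1, 26 and 27, 1684 genes were higher (11.2%) and 1253 lower (8.32%), and of these 1678 and 1247 had the same call with all libraries. After quantile normalization of all libraries the balance turned, with 2092 genes higher and 2623 lower. The counts of each gene list below are to be read beside the shares of all genes, and no list was tested against them. The median size of the difference over all genes was 0.29 on the log2 scale. Differences past 1 on that scale were mostly in 1 direction, with 975 of the called genes higher in females by that much and 134 lower. The values of the 3 females and the 3 males did not overlap at 6540 genes (43.4%). An exact permutation test of 3 against 3 mice cannot give a two-sided p under 0.1, so no single gene was tested that way, and adjusted p-values below are those of limma. Log2 fold changes are of females over males, with their standard error after the ± sign. This error and the p-values rest on a spread shared by all 23 libraries, not on that of these females and males alone. The median spread within a group was 0.171 on the log2 scale in these females and 0.0683 in these males. A fit of the 2 groups alone called 1826 genes higher and 1464 lower, in place of 2584 and 2230.

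**Figure D1:**
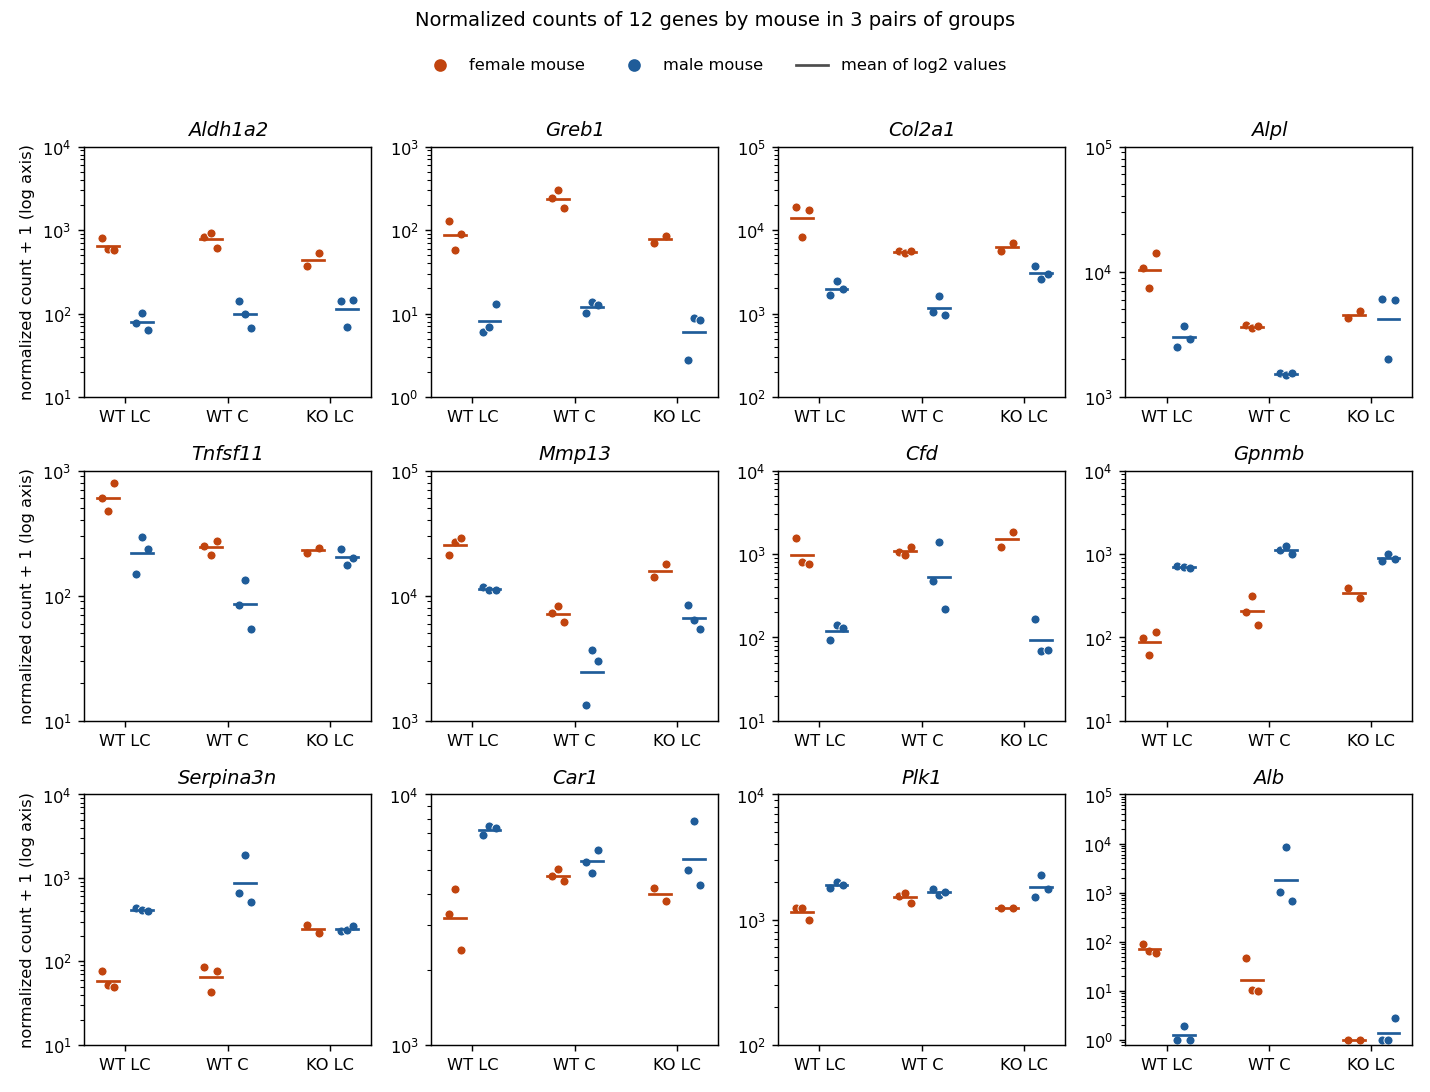
Normalized count plus 1 of 12 genes on a log axis, 1 point per mouse, with females in orange, males in blue and lines at the mean of the log2 values, for WT mice on the low-calcium diet (WT LC), WT mice on the control diet (WT C) and KO mice on the low-calcium diet (KO LC). In WT LC the points of females and males are separate for all 12 genes, while *Serpina3n*, *Alpl* and *Tnfsf11* overlap in KO LC, where 1 female is mouse 5, and *Alb* is higher in the males of WT C.

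The gene with the smallest adjusted p, lower in females, was *Gpnmb*, which encodes osteoactivin, a glycoprotein of macrophages, osteoclasts and osteoblasts. It lies at chr6:49036546-49070929 (GRCm38). Its normalized count was 97.1, 59.8 and 115 in females 16, 17 and 18 and 721, 691 and 685 in males 8, 9 and 26, so that every female was several times below every male (log2 fold change -2.98 ± 0.25, adjusted p = 1.11e-06). *Serpina3n*, a secreted inhibitor of serine proteases that rises in inflammation, lies at chr12:104406729-104414329. It was at 76.2, 51.3 and 48.8 in females and 434, 407 and 406 in males (log2 fold change -2.83 ± 0.33, adjusted p = 7.07e-05). *Slc26a7*, an anion transporter, was at 51.4, 62.7 and 29.7 in females and 212, 169 and 195 in males (log2 fold change -2.04 ± 0.37, adjusted p = 0.000905), and *Fgf3*, a growth factor, was at 0, 0 and 2.38 against 8.77, 10.8 and 16.5 (log2 fold change -3.08 ± 0.52, adjusted p = 0.000657). *Gpnmb*, *Serpina3n*, *Slc26a7* and *Fgf3* also passed the test in the reduced set (adjusted p of 0.00017, 0.0031, 0.0111 and 0.0112). *Myoc*, which encodes myocilin, a secreted matrix protein, was at 0, 11.4 and 21.4 against 118, 60.1 and 87.7, and its call was lost in the reduced set (adjusted p 0.0315, then 0.103).

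*Aldh1a2*, which encodes the enzyme that makes retinoic acid from retinaldehyde, had the smallest adjusted p of the genes higher in females after *Col2a1*. It lies at chr9:71215789-71296243 and was at 794, 587 and 581 in the females and 75.8, 101 and 61.7 in the males (log2 fold change 3.04 ± 0.35, adjusted p = 7.07e-05). *Greb1*, a target gene of the estrogen receptor, lies at chr12:16670615-16800886 and was at 126, 57.0 and 88.0 against 5.01, 5.91 and 12.2 (log2 fold change 3.41 ± 0.54, adjusted p = 0.000515). *Pgr*, the progesterone receptor and another estrogen target, was low in both sexes, at 39.99, 19.9 and 55.9 against 4.39, 10.8 and 9.55 (log2 fold change 2.06 ± 0.55, adjusted p = 0.00757). *Esr1*, the main estrogen receptor of bone, was at 1975, 1390.3 and 2004 against 859.8, 1103 and 941, so every female was above every male (log2 fold change 0.87 ± 0.16, adjusted p = 0.000875). Over the list of sex steroid receptors and estrogen-regulated genes, 7 of 18 measured members were higher in females and 0 were lower (4 and 0 in the reduced set), with a median log2 difference of 0.30 against 0.01 over all genes tested. *Calcr*, the calcitonin receptor of osteoclasts, was at 60.9, 71.2 and 64.2 against 19.4, 11.8 and 19.98 (log2 fold change 1.91 ± 0.43, adjusted p = 0.00265). *Lppr5*, which encodes a lipid phosphatase-related membrane protein, was at 74.3, 48.4 and 149 against 1.25, 1.97 and 6.08 (log2 fold change 4.51 ± 0.79, adjusted p = 0.000739). *Tll2*, a protease of the BMP1 family, was at 30.5, 14.2 and 70.2 against 1.25, 0 and 0.869 (log2 fold change 4.33 ± 0.59, adjusted p = 0.000251). All of these genes passed the test in the reduced set.

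Some other genes with large differences had low counts in one sex. *Trp63*, a transcription factor of epithelia, was at 20.9, 11.4 and 58.3 in females and 6.89, 2.95 and 0 in males, and lost its call in the reduced set (adjusted p 0.007, then 0.0607). *Gpr3*, a receptor that is active without ligand, was at 282, 48.4 and 282 against 11.9, 23.6 and 24.3, so female 17 was far below the other females and still above every male (log2 fold change 2.98 ± 0.77, adjusted p = 0.0065). *Serpina3m*, a neighbour and relative of *Serpina3n* with which reads may be shared, was at 0 in every female and at 9.40, 3.94 and 6.08 in the males, and its call was lost in the reduced set (adjusted p 0.0195, then 0.0719). In the acute phase list the directions were split, with 7 of 21 higher and 5 lower (3 and 2 in the reduced set). *Lcn2*, an iron-binding protein of neutrophil granules that is also made in bone, was at 25352, 20336 and 22356 against 43178, 37346 and 41039 (log2 fold change -0.84 ± 0.22, adjusted p = 0.00667). *Cp*, which encodes the copper carrier ceruloplasmin, was at 7109, 6154 and 7890.5 against 3629, 4098 and 3642 (log2 fold change 0.89 ± 0.18, adjusted p = 0.00124). Of 14 measured genes of the retinoic acid list, 4 were higher in females and 2 lower (2 and 0 in the reduced set). Besides *Aldh1a2*, the list held *Aldh1a3*, a related enzyme, at 81.9, 62.7 and 53.5 against 29.5, 14.8 and 23.4 and the receptor *Rara* at 1192, 838 and 1129.6 against 789.6, 720.0 and 785. Both passed the test with all libraries (adjusted p of 0.0147 and 0.0128), and *Rara* did in the reduced set (0.046) while *Aldh1a3* did not (0.052).

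Bone matrix genes were higher in females as a group. Of 28 measured genes of bone matrix and mineralization, 22 were higher in females and 0 lower (16 higher in the reduced set), and the median log2 difference was 0.94. *Alpl*, which encodes tissue-nonspecific alkaline phosphatase, an enzyme of mineralization, lies at chr4:137741733-137796384 and was at 10663, 7487 and 13997 in females and 2509.7, 3706 and 2910.4 in males (log2 fold change 1.79 ± 0.29, adjusted p = 0.000569). *Ibsp*, which encodes bone sialoprotein, was at 14689, 15561 and 22132 against 5419.8, 6050.1 and 5706 (log2 fold change 1.59 ± 0.29, adjusted p = 0.000884). *Bglap*, which encodes osteocalcin, was at 4982, 2274 and 3367 against 1120.4, 1839.8 and 1507 (log2 fold change 1.21 ± 0.27, adjusted p = 0.00297), and its near-identical neighbour *Bglap2* was at 5186, 1832 and 3260.4 against 1183, 1738 and 1561, although reads may be split between these copies. *Enpp1*, which makes the mineral inhibitor pyrophosphate, and *Slc20a2*, a phosphate transporter, were higher too, by 0.82 and 0.72 on the log2 scale (adjusted p of 0.000875 and 0.00127). Female 17 had the lowest values of the females for *Alpl*, *Bglap* and *Bglap2*, and for *Bglap2* stood little above male 9.

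Collagen RNA was higher in females too. Of 31 measured collagen chains, 22 were higher in females and 0 lower (19 in the reduced set), with a median log2 difference of 1.04. The summed normalized count of all these chains was 1359105, 764581 and 1248434 in females 16, 17 and 18 and 406696, 704130.0 and 536939 in males 8, 9 and 26, so female 17 stood only a little above male 9. *Col1a1*, the main chain of bone collagen, was at 806241, 449795 and 738379 against 235609, 417191 and 315403 (log2 fold change 1.04 ± 0.28, adjusted p = 0.00907; 0.0481 in the reduced set). *Col1a2*, its partner, was at 401033, 227761 and 349622 against 125276, 227049 and 170008 and lost its call in the reduced set (adjusted p 0.0131, then 0.0588). *Col2a1*, best known as the collagen of cartilage, was the collagen furthest apart, at 18934, 8296 and 17307 against 1645, 2419.9 and 1961 (log2 fold change 2.81 ± 0.27, adjusted p = 5.37e-06). Of 14 measured chondrocyte genes other than collagens 2 were higher and 1 lower (1 and 1 in the reduced set), and their summed count was 6776, 8604 and 6763 in females and 8664, 9018 and 8596 in males. *Col8a1*, a short-chain collagen, was at 5539.9, 3476 and 4844 against 976, 1090.3 and 1108 (log2 fold change 2.10 ± 0.32, adjusted p = 0.00044), and *Col4a1* and *Col4a2*, which form the basement membrane of vessels, were higher by 1.42 and 1.45 on the log2 scale (adjusted p of 0.000572 and 0.000427). *Col3a1*, the collagen of soft connective tissue, was at 2344, 1464 and 2464 against 3794, 2337 and 3070.2 and did not pass the test (adjusted p = 0.438).

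The enzymes that modify and export collagen were higher with it. Of 27 measured genes of collagen processing, 24 were higher in females and 1 lower (19 and 0 in the reduced set). *Plod2*, the hydroxylase that sets the type of collagen cross-link in bone, was at 5367, 3549.9 and 6124 against 1515, 2060.4 and 1782 (log2 fold change 1.46 ± 0.25, adjusted p = 0.000707). *Serpinh1*, which encodes the collagen chaperone HSP47, was at 12889, 7963 and 13783 against 3632, 5644 and 4609 (log2 fold change 1.30 ± 0.26, adjusted p = 0.00127), while the heat shock list that also holds it had 3 higher and 1 lower of 15 (2 and 0 in the reduced set). *Sec24d*, a coat protein of the vesicles that carry procollagen out of the endoplasmic reticulum, was at 3349.9, 2584 and 3939 against 1706, 1881 and 1820.4 (log2 fold change 0.85 ± 0.15, adjusted p = 0.000853). *P4ha3*, a prolyl hydroxylase subunit, was at 147, 85.5 and 189 against 19.4, 24.6 and 36.5 (log2 fold change 2.32 ± 0.42, adjusted p = 0.000878). Over the general list of transport from the endoplasmic reticulum to the Golgi and of the unfolded protein response, 15 of 31 were higher and 0 lower (8 and 0 in the reduced set), but by less, with a median log2 difference of 0.20.

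Few genes of the list of small leucine-rich proteoglycans passed. Of 12 proteoglycans 1 was higher in females and 1 lower (1 and 0 in the reduced set). *Podnl1*, a proteoglycan-like matrix protein, was at 470.4, 527 and 519.6 against 203, 188 and 206 (log2 fold change 1.34 ± 0.18, adjusted p = 0.000251). *Aspn*, which encodes asporin, was at 331, 567 and 507 against 2174, 1047 and 1468, and its call was lost in the reduced set (adjusted p 0.0243, then 0.0827). *Postn*, which encodes periostin of the bone surface, was at 6679, 4920.2 and 7995 against 3570.0, 2653 and 3068 (log2 fold change 1.06 ± 0.28, adjusted p = 0.00751). In the periosteum and tendon list that holds *Postn*, 4 of 15 were higher and 1 lower (3 and 0 in the reduced set).

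**Figure D2:**
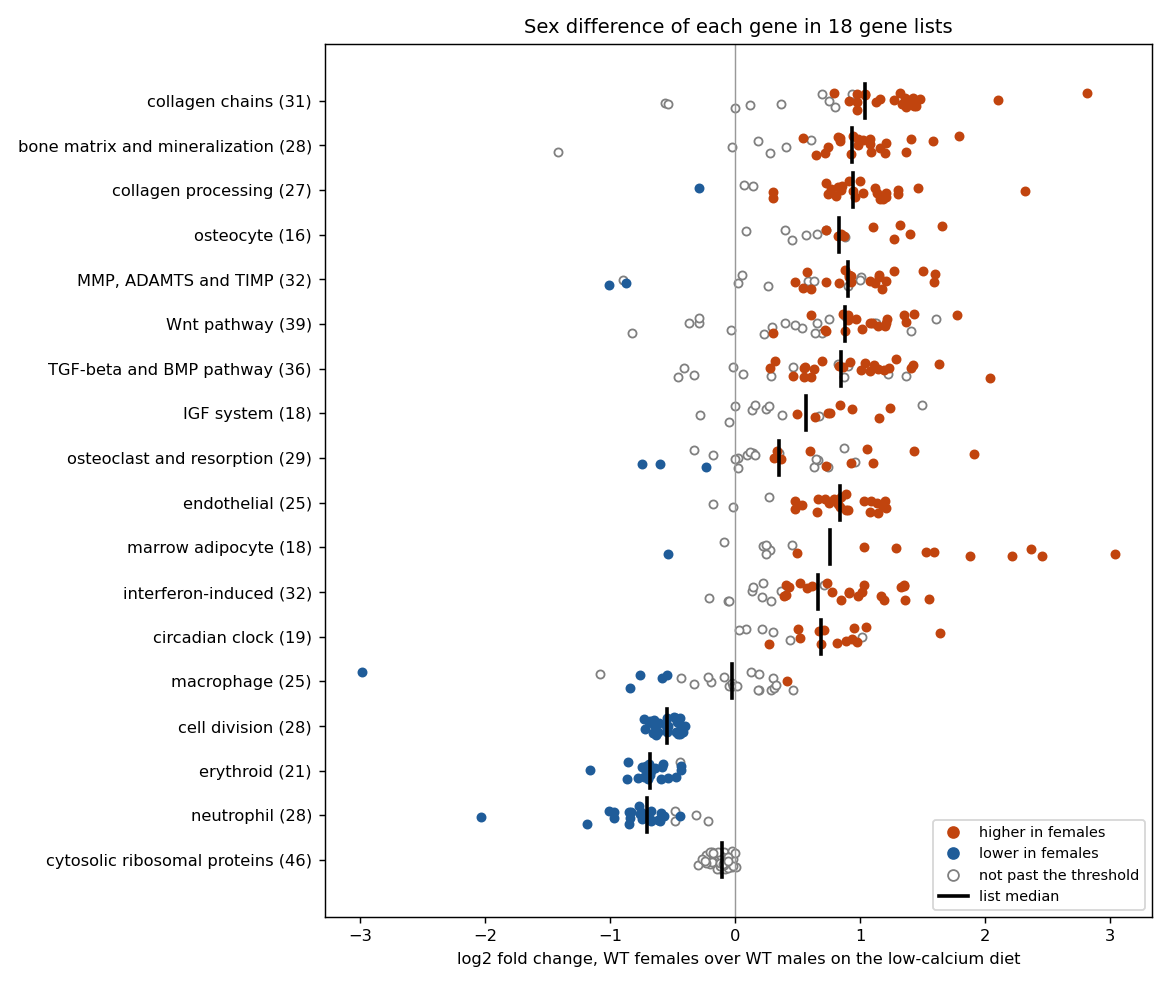
Log2 fold change of WT females over WT males on the low-calcium diet for every measured gene of 18 gene lists (1 point per gene, number of genes in brackets), coloured where the adjusted p was under 0.05, with a black bar at the median of each list. Collagen, bone matrix and endothelial genes lie mostly to the right, all 28 cell division genes lie to the left, and none of 46 ribosomal protein genes passed the threshold.

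Among the regulators of resorption, the signal that calls for osteoclasts was higher in females and the genes of the osteoclast itself were mixed. *Tnfsf11*, which encodes RANKL, lies at chr14:78277445-78308043 and was at 598, 473 and 789.5 in the females and 149, 293 and 234 in the males, with no overlap (log2 fold change 1.48 ± 0.29, adjusted p = 0.00122). *Tnfrsf11b*, which encodes its decoy osteoprotegerin, was at 783, 299 and 839 against 254, 399 and 314, and female 17 lay among the males (adjusted p = 0.116). *Csf1*, the other cytokine that osteoclast precursors need, was at 2839, 2687 and 3043 against 1523, 1832 and 1734 (log2 fold change 0.75 ± 0.16, adjusted p = 0.00203). *Tnfrsf11a*, the receptor RANK, was at 819, 641 and 410.2 against 386, 414 and 332, with female 18 just under male 9, and it lost its call in the reduced set (adjusted p 0.0148, then 0.0945).

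Of 29 measured genes of osteoclasts and resorption, 10 were higher in females and 3 lower (8 and 2 in the reduced set). *Ctsk*, the protease cathepsin K, was at 14468, 13880.3 and 8379 against 6059, 9338 and 7509 and *Acp5*, the phosphatase that TRAP staining detects, at 15666, 13308 and 8277 against 5907, 9887 and 7943. In both, females 16 and 17 were above all males and female 18 lay within the male range, and neither passed the test (adjusted p of 0.218 and 0.106). *Atp6v0d2*, an osteoclast subunit of the proton pump, was at 2283, 2117 and 1677 against 773, 1202 and 969 (log2 fold change 1.06 ± 0.23, adjusted p = 0.0026), and *Nfatc1*, the transcription factor of osteoclast formation, at 5854, 4462 and 5289 against 3237, 3663 and 3342 (log2 fold change 0.60 ± 0.12, adjusted p = 0.00151). *Mst1r*, a receptor tyrosine kinase of macrophages and osteoclasts, was at 476, 413 and 338 against 119.7, 184 and 153 (log2 fold change 1.43 ± 0.26, adjusted p = 0.000879). *Car2*, the carbonic anhydrase that supplies protons, was lower in females, at 19612, 24179 and 14395 against 30655, 32966 and 31678 (log2 fold change -0.74 ± 0.17, adjusted p = 0.00315). *Car2* is also abundant in red cell precursors, whose genes were lower in females, and their part in this value was not tested.

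Matrix proteases were mostly higher in females, with 21 of 32 metalloproteases and their inhibitors higher and 2 lower (13 and 2 in the reduced set). *Mmp13*, the collagenase of osteoblasts and osteocytes, was at 21295, 26778 and 29086 in females and 11696, 11070.1 and 11153 in males. The gap between the groups was wider than the range within either, but the call was lost in the reduced set (log2 fold change 1.17 ± 0.36, adjusted p = 0.0182; then 0.0729). *Mmp14*, a membrane-bound collagenase, was at 5810.4, 3556 and 4955 against 2249, 2709 and 2441 (log2 fold change 0.93 ± 0.18, adjusted p = 0.00115), and *Adamts9*, which cleaves proteoglycans, at 2291, 1373 and 3723 against 590.3, 925 and 779 (log2 fold change 1.59 ± 0.33, adjusted p = 0.00168). Both proteases that were lower, *Mmp8* and *Mmp25*, are neutrophil enzymes. *Mmp8* was at 4664, 3390.3 and 2962 against 7964, 6608 and 7316 and *Mmp25* at 1143, 926 and 974 against 1988, 1730.4 and 1845, and both also passed in the reduced set.

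The promoters of *Gpnmb* and *Mmp13* are shown as those of the gene with the smallest adjusted p and of the bone collagenase, since both hold motifs of skeletal transcription factors. The sequences are from RefSeq, build GRCm38.p6, and run from 250 bases before to 50 bases after the start of the gene. Capitals mark TGTGGTT (or AACCACA on the other strand), the core bound by RUNX factors of the skeleton, and TGANTCA, the core of AP-1, searched on both strands and without overlap between them here.
Gpnmb promoter, chr6:49036268-49036567, plus strand: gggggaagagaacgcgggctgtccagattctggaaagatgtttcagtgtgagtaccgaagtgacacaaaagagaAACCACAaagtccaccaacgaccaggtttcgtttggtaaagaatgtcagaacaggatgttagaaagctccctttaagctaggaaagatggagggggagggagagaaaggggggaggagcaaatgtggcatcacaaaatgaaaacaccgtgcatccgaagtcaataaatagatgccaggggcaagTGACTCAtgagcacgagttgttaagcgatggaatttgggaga
Mmp13 promoter, chr9:7272264-7272563, plus strand: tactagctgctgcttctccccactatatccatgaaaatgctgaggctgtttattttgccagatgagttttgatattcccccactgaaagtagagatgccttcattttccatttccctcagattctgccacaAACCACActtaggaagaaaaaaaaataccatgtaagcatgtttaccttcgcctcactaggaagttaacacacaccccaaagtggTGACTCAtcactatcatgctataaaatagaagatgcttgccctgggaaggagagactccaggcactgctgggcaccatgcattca
Each promoter held 1 match to each motif. Over the promoters of 27025 gene symbols, 6.09% held the RUNX core and 8.97% the AP-1 core. A match describes the letters in this window and does not show that a factor binds there.

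Receptors of calcium hormones and genes of calcium transport were in part higher in females. Of 26 measured genes, 10 were higher and 3 lower (8 and 2 in the reduced set). *Pth1r*, the receptor of parathyroid hormone, was at 2152, 1567 and 2682 against 799, 1074 and 951 (log2 fold change 1.16 ± 0.23, adjusted p = 0.00133). *Vdr*, the vitamin D receptor, was at 2630.0, 2450.1 and 2299.6 against 1065, 1379 and 1116 (log2 fold change 1.06 ± 0.18, adjusted p = 0.000737), and *Slc8a3*, a sodium-calcium exchanger, at 1181, 801 and 1103 against 342, 402 and 399 (log2 fold change 1.41 ± 0.27, adjusted p = 0.001). *Cacna2d1*, a subunit of voltage-gated calcium channels, was higher by 0.88 (adjusted p = 0.00152).

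Among the genes that mark osteocytes, 9 of 16 were higher in females and 0 lower, but only 4 passed in the reduced set. These were *Tnc*, *Kcnk2*, *Ptprz1* and *Npnt*. *Npnt*, which encodes the matrix protein nephronectin, was at 729, 302 and 901 against 217, 228 and 216 (log2 fold change 1.40 ± 0.29, adjusted p = 0.00165). *Ptprz1*, a receptor phosphatase, was at 3389.9, 1812 and 2449 against 1131, 1217 and 1095 (log2 fold change 1.11 ± 0.22, adjusted p = 0.00117). *Kcnk2*, a stretch-gated potassium channel, was at 678, 308 and 671 against 129.7, 222 and 154 (log2 fold change 1.66 ± 0.30, adjusted p = 0.000855). *Dmp1* (log2 fold change 1.27, adjusted p = 0.0174) lost its call in the reduced set (adjusted p = 0.0719). The late osteocyte genes *Sost*, *Mepe* and *Fgf23* did not pass the test with all libraries (adjusted p of 0.203, 0.386 and 0.435). For *Sost* and *Mepe* female 16 was above all males and female 17 below them. *Mepe*, a matrix protein that restrains mineralization, was at 8042, 2063 and 3564 against 2623, 3110.3 and 2793, the same order among the females as for *Sost*.

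Growth signals of bone were higher in females. In the Wnt list 20 of 39 genes were higher and 0 lower (14 in the reduced set), with a median log2 difference of 0.88. They included the ligand *Wnt4* at 248, 134 and 184 against 62.7, 111 and 104 (adjusted p = 0.0404), the receptors *Lrp4* and *Lrp5* (log2 fold changes of 1.35 and 0.72), the transcription factor *Tcf7* (0.90) and the secreted inhibitor *Wif1* at 5713, 3487 and 5184 against 1926, 2558 and 2150.4 (adjusted p = 0.00106), so that activators and inhibitors were higher together. In the TGF-beta and BMP list 24 of 36 were higher and 0 lower (15 and 0 in the reduced set). *Tgfb3*, a TGF-beta ligand, was at 859, 430.2 and 943 against 174, 288 and 232 (log2 fold change 1.63 ± 0.32, adjusted p = 0.00125), whereas *Tgfb1*, the ligand stored in bone matrix, was at 7347, 5923 and 8065 against 6960.1, 7144 and 7273, with overlap (adjusted p = 0.92). *Ltbp2*, a relative of the proteins that anchor latent TGF-beta, was at 1607, 1439 and 2073 against 834, 700.3 and 767 (log2 fold change 1.14 ± 0.15, adjusted p = 0.000187), and the BMP target *Id3* at 1409, 1094 and 1187 against 488, 691 and 571 (log2 fold change 1.08 ± 0.16, adjusted p = 0.000404). In the insulin-like growth factor system 8 of 18 were higher and 0 lower (5 and 0 in the reduced set). *Igfbp5*, an abundant binding protein of bone, was at 16113, 11561 and 16548 against 8351, 8925 and 8779 (log2 fold change 0.75 ± 0.15, adjusted p = 0.00151), and *Irs1*, the adaptor of the receptor, at 2817, 2254 and 2974 against 1075, 1266 and 1047 (log2 fold change 1.24 ± 0.23, adjusted p = 0.000878).

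*Fndc5* itself, the precursor of irisin, was near the detection limit in this tissue, at 9.52, 2.85 and 3.57 in females and 2.51, 6.89 and 2.61 in males (adjusted p = 0.829). Of 7 measured genes of irisin and its integrin receptors, 4 were higher in females, also in the reduced set. *Itgav* and *Itgb5*, the integrin chains through which irisin acts on osteocytes, were at 8385, 7048 and 7829 against 4144, 4807 and 4249.6 (log2 fold change 0.82 ± 0.12, adjusted p = 0.000375) and at 1919.6, 1869 and 1879 against 1211, 1235 and 1180.3 (log2 fold change 0.64 ± 0.14, adjusted p = 0.00274). For both genes the lowest female was well above the highest male.

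**Figure D3:**
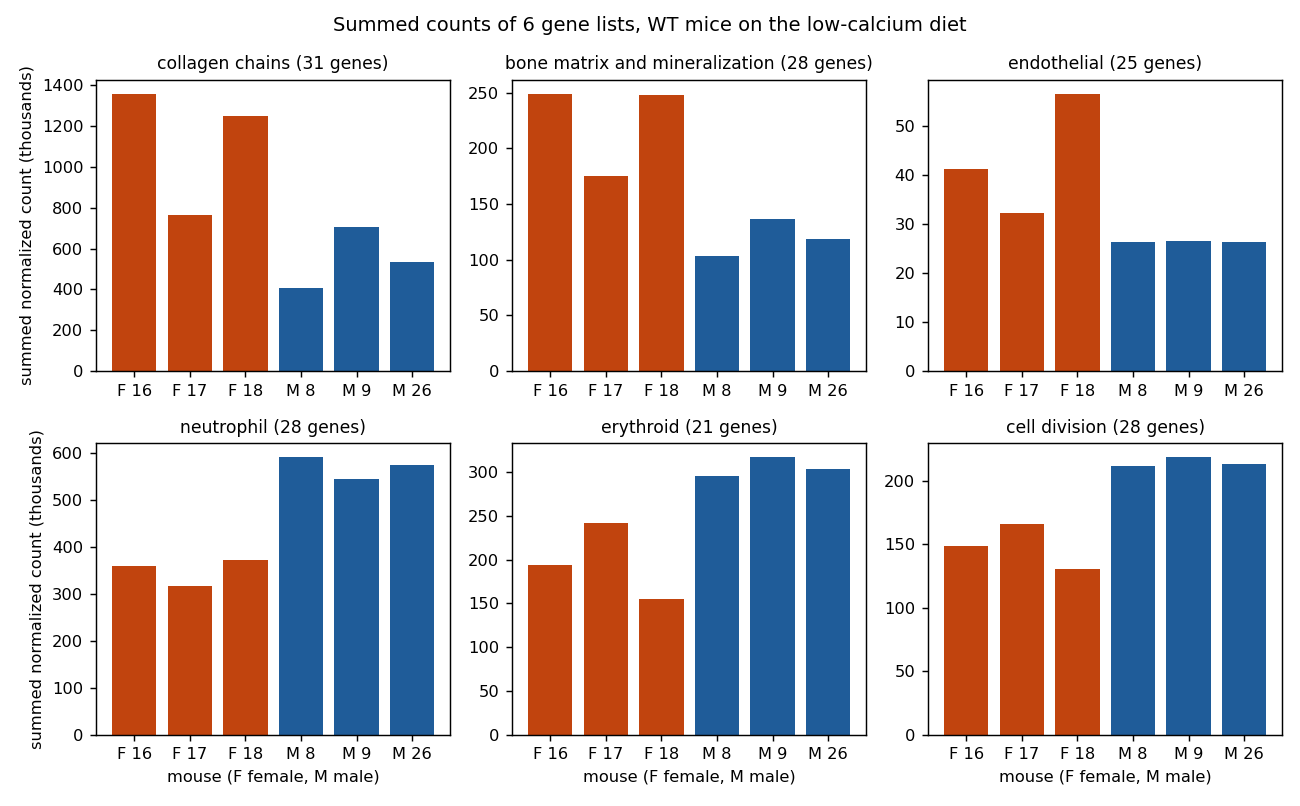
Summed normalized count, in units of 1000, of all measured genes of 6 lists in each of the 6 libraries, with females 16, 17 and 18 in orange and males 8, 9 and 26 in blue. Collagen, bone matrix and endothelial sums were higher in the females, with female 17 nearest to the males, and neutrophil, erythroid and cell division sums were lower in every female than in every male.

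Neutrophil and erythroid genes were lower in females, while the macrophage and lymphocyte lists had fewer calls. Of 28 neutrophil genes 23 were lower and 0 higher (16 lower in the reduced set), with a median log2 difference of -0.70. *Ifitm6*, a membrane protein of myeloid cells, was at 3028, 2575 and 3074 against 6093, 5171 and 5691 (log2 fold change -0.97 ± 0.21, adjusted p = 0.00227), and *Cd177*, a neutrophil surface protein, at 8726, 8906 and 10518 against 16206, 15172 and 15834 (log2 fold change -0.75 ± 0.17, adjusted p = 0.00276). Of 21 erythroid genes 20 were lower and 0 higher (16 lower in the reduced set), and *Car1*, the red cell carbonic anhydrase, was at 3335, 4199 and 2390.0 against 6885, 7458 and 7343 (log2 fold change -1.16 ± 0.17, adjusted p = 0.00038). The summed erythroid count was 194360.5, 242094 and 155195 in females 16, 17 and 18 and 295997, 317085 and 303826 in the males. The neutrophil sum was 359673, 318239 and 372508 and 591982, 546300.4 and 574918. Of the macrophage list, 1 of 25 genes were higher and 5 lower (0 and 5 in the reduced set). The higher one was *Csf1r*, the receptor of CSF1, with a log2 fold change of 0.41. It turned to -0.0672 without females 16 and 17, which left female 18 alone in her group. Among the lower ones, *Slc40a1*, the iron exporter ferroportin, was at 2439.6, 2533 and 1653 against 3777, 4129 and 3769 (log2 fold change -0.84 ± 0.15, adjusted p = 0.000923). *Dntt*, which marks early lymphoid cells, was at 206, 214 and 234 against 387, 441 and 473 (log2 fold change -0.99 ± 0.19, adjusted p = 0.00111), while in the B lymphocyte list 4 of 29 were higher and 2 lower (2 and 1 in the reduced set). Of 19 T and NK lymphocyte genes 0 were higher and 1 lower (the same in the reduced set). The part of these blood cell values in the higher bone genes of the females was not tested.

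All 28 measured genes of cell division were lower in females (27 in the reduced set), with a median log2 difference of -0.55. *Plk1*, a kinase of mitosis, was at 1239.8, 1228 and 985 against 1803, 2007 and 1899 (log2 fold change -0.73 ± 0.12, adjusted p = 0.000514), *Ccnb1*, the mitotic cyclin, at 2082, 2450.1 and 1739.6 against 3389.5, 3451 and 3372 (log2 fold change -0.72 ± 0.12, adjusted p = 0.000707), and *Mcm2*, a subunit of the replicative helicase, at 2862, 3589.7 and 2809.7 against 4491, 4845 and 4784 (log2 fold change -0.62 ± 0.11, adjusted p = 0.000708). The interferon-induced genes went the other way, with 22 of 32 higher and 0 lower (19 higher in the reduced set). *Ifit1*, an inhibitor of viral translation, was at 451, 256 and 314 against 119, 141 and 127 (log2 fold change 1.36 ± 0.18, adjusted p = 0.000187), and *Oasl2* and *Mx2*, which belong to families of antiviral proteins, were at 832, 926 and 669 against 415, 380.2 and 384 (log2 fold change 1.03 ± 0.16, adjusted p = 0.000484) and at 79.99, 88.3 and 115 against 38.9, 31.5 and 39.95 (log2 fold change 1.33 ± 0.22, adjusted p = 0.000657). The median log2 difference of the interferon-induced list was 0.66, and for *Ifit1*, *Oasl2* and *Mx2* every female was above every male.

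The promoters of *Ifit1* and *Plk1* are shown because they hold motifs known from interferon-induced and cell cycle genes. In the first, capitals mark matches to the core of the interferon-stimulated response element, searched on both strands. In the second, they mark the CCAAT box (CCAATCA) and the cell cycle homology region (TTTGAA), also on both strands, which do not overlap here.
Ifit1 promoter, chr19:34640639-34640938, plus strand: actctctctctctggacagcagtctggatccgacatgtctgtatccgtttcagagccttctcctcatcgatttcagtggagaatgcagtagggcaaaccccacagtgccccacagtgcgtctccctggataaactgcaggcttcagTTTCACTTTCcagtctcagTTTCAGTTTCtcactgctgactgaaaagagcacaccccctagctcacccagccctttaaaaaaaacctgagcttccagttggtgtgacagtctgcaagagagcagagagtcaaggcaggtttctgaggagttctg
Plk1 promoter, chr7:122159185-122159484, plus strand: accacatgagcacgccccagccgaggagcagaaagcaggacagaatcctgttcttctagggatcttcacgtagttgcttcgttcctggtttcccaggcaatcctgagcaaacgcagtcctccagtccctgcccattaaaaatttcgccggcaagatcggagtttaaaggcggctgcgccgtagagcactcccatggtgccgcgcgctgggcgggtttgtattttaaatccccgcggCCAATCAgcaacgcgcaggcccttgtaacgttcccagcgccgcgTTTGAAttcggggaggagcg
The response element was in the promoters of 16 of 23 interferon-induced genes with a RefSeq promoter and in 3.99% of the 27025 symbols. The CCAAT box was in 11 of 25 cell division genes and in 9% of all symbols, and TTTGAA in 13 of 25 and 20.2%. The lists were drawn up from known interferon and cell cycle genes, so these shares describe the lists and are no result about sex.

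Vessel genes were higher in females. Of 25 endothelial genes 22 were higher and 0 lower (17 in the reduced set), with a median log2 difference of 0.84. *Stab1*, a scavenger receptor of sinusoids, was at 2419, 1880.3 and 2799 against 989, 1059 and 1058 (log2 fold change 1.17 ± 0.14, adjusted p = 0.000108), and *Emcn*, a sialomucin of the vessels that accompany bone formation, at 971, 556 and 1146 against 315, 421 and 386 (log2 fold change 1.20 ± 0.22, adjusted p = 0.000865). *Vegfa*, the growth factor of vessels, was at 3832, 2479 and 5164 against 1679, 1974 and 1801 (log2 fold change 1.01 ± 0.21, adjusted p = 0.00177). In the list of hypoxia and glycolysis that holds *Vegfa*, 8 of 26 were higher and 5 lower (4 and 1 in the reduced set).

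Fat cell genes were higher in females, with 10 of 18 higher and 1 lower (9 and 1 in the reduced set). *Cfd*, which encodes the adipokine adipsin, was at 1573, 809 and 750.3 against 92.1, 142 and 129 (log2 fold change 3.04 ± 0.56, adjusted p = 0.000958), and *Adipoq*, which encodes adiponectin, at 1958, 1504 and 1290.1 against 591, 721 and 613 (log2 fold change 1.29 ± 0.23, adjusted p = 0.000784). The lipid droplet proteins *Plin1* and *Cidec* were at 259, 74.1 and 149.8 against 25.1, 39.4 and 26.9 and at 169, 103 and 55.9 against 16.3, 22.7 and 13.9 (adjusted p of 0.00674 and 0.00666). *Pparg*, the transcription factor of fat cell formation, did not pass (log2 fold change 0.26, adjusted p = 0.156). *Vldlr*, a receptor for triglyceride-rich lipoproteins, was at 3137, 2168 and 2313 against 702, 878 and 761 (log2 fold change 1.69 ± 0.27, adjusted p = 0.000513). In the list of cholesterol and fatty acid metabolism, 8 of 42 were higher and 5 lower (6 and 2 in the reduced set). Adipocyte genes were higher in KO females than KO males as well, where 9 of 18 passed (4 without female 5), and in WT mice on the control diet 0 did, where male 24 had *Plin1* at 268 against 97.7 and 51.2 in males 7 and 25.

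The largest log2 fold changes belonged to liver genes at low counts. *Alb*, which encodes serum albumin, was at 91.4, 65.5 and 57.1 in females and 0, 0.985 and 0 in males (log2 fold change 5.82 ± 0.95, adjusted p = 0.00056), and *Pzp*, a plasma protease inhibitor, at 5.71, 48.4 and 35.7 against 0 in every male, which is at least 36.5-fold higher on a floor of 3 reads over the male group. Of 32 measured hepatocyte genes 7 were higher in females and 1 lower (4 and 0 in the reduced set). In WT males on the control diet *Alb* was at 1026, 8560.4 and 693, against 46.1, 9.56 and 8.94 in the females, and KO mice on the low-calcium diet held 0 to 1.86. The source of these counts was not tested. Of 26 measured muscle genes 3 were higher in females and 1 lower (2 and 1 in the reduced set), and *Actn2*, which anchors the thin filaments of muscle, was at 19.04, 31.3 and 14.3 against 5.01, 4.92 and 2.61 (log2 fold change 2.09 ± 0.51, adjusted p = 0.00482).

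Genes that respond to handling and to the time of day also differed. Of 26 immediate early genes 10 were higher in females and 0 lower (5 and 0 in the reduced set), and *Cyr61* and *Ctgf*, matrix proteins induced by mechanical load, were at 11055, 9649.6 and 13195 against 2507, 4656 and 3485 (log2 fold change 1.70 ± 0.32, adjusted p = 0.00105) and at 5346, 4778 and 6824 against 1802, 2607 and 2203 (log2 fold change 1.36 ± 0.30, adjusted p = 0.00271). Of 19 clock genes 13 were higher and 0 lower (10 and 0 in the reduced set). *Nr1d2* and *Tef*, transcription factors of the clock and its output, were at 2382, 1994 and 2351 against 1104, 1294 and 1115 (log2 fold change 0.94 ± 0.16, adjusted p = 0.000775) and at 863, 778 and 894 against 392, 474 and 425 (log2 fold change 0.97 ± 0.15, adjusted p = 0.000404). *Clock*, the activator of the loop, was higher by 0.69, while its partner *Arntl* did not pass (log2 fold change 0.31, adjusted p = 0.196). No source used here gives the hour of collection, and its part in these values was not tested. Of 46 genes of cytosolic ribosomal proteins 0 were higher and 0 lower by limma, also in the reduced set. With all libraries, 6367 of the 15056 genes had an unadjusted p under 0.05 by limma.

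The 2 other pairs of groups, made of different mice, gave fewer calls, and most genes called in WT mice on low calcium had the same direction in them. In KO mice on the low-calcium diet 162 genes were higher in females (1.08%) and 225 lower (1.49%), and 8 higher and 8 lower were called without female 5. In the reduced set 19 KO genes were higher and 5 lower. In WT mice on the control diet 156 were higher (1.04%) and 121 lower (0.804%), but 14 and 37 in the reduced set, so the balance of the calls turned. Leaving out control female 1 alone gave 91 calls. Of the 2584 genes higher in WT females on low calcium, 86.6% were also above the males among the KO mice (86.5% without female 5, where 49.99% of all genes were) and 90.9% among WT mice on the control diet, where 49.4% and 49.1% of all genes were. Of the 2230 lower genes, 86.7% (87.4% without female 5) and 87.6% were below the males, beside 50.4% and 50.9% of all genes. Of the control-diet calls, 154 of 156 higher and 65 of 121 lower genes had the same direction in WT mice on low calcium. Of the KO calls with all libraries, 158 of 162 higher and 204 of 225 lower genes did. The median log2 difference of the genes higher in WT females on low calcium was 0.84 in that comparison, which chose them, and 0.32 in KO mice (0.36 without female 5) and 0.33 on the control diet.

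With all libraries, 18 genes were called higher in females in all 3 comparisons and 4 lower. These counts rested on few libraries: without female 5 they were 3 higher (*Igfbp5*, *Esm1* and *Calcr*) and 1 lower (*Susd2*, which was not among the 4), and in the reduced set 1 higher (*Greb1*) and 0 lower. The KO adjusted p without female 5 was 0.0696 for *Aldh1a2*, 0.0578 for *Greb1* and 0.0803 for *Gpnmb*. *Aldh1a2* was at 826, 926 and 610.1 in females and 141, 98.0 and 65.9 in males on the control diet, and at 369 and 529 in KO females 5 and 6 against 139.8, 67.9 and 143 in KO males. *Greb1* was at 242, 299 and 184 against 9.09, 12.6 and 11.5 on the control diet and at 69.6 and 84.0 against 1.79, 7.89 and 7.42 in KO mice. *Gpnmb* was at 202, 315 and 139.7 against 1128, 1241 and 1009 and at 385 and 298 against 819, 997 and 864. For these genes the sexes did not overlap in any of the 3 pairs. *Calcr*, *Igfbp5*, *Ltbp2*, *Tef*, *Podnl1* and *Cxcl10*, a chemokine induced by interferon, were also among the 18. The other 3 of the 4 lower genes were *Lgals3*, which encodes the macrophage lectin galectin-3, *Clec7a*, the fungal receptor dectin-1, and *Ostf1*, which encodes a protein first described in osteoclasts. *Clec7a* was at 1703, 1274 and 1207 against 2422, 2524 and 2457 in WT mice on low calcium (log2 fold change -0.84 ± 0.16, adjusted p = 0.000978).

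**Figure D4:**
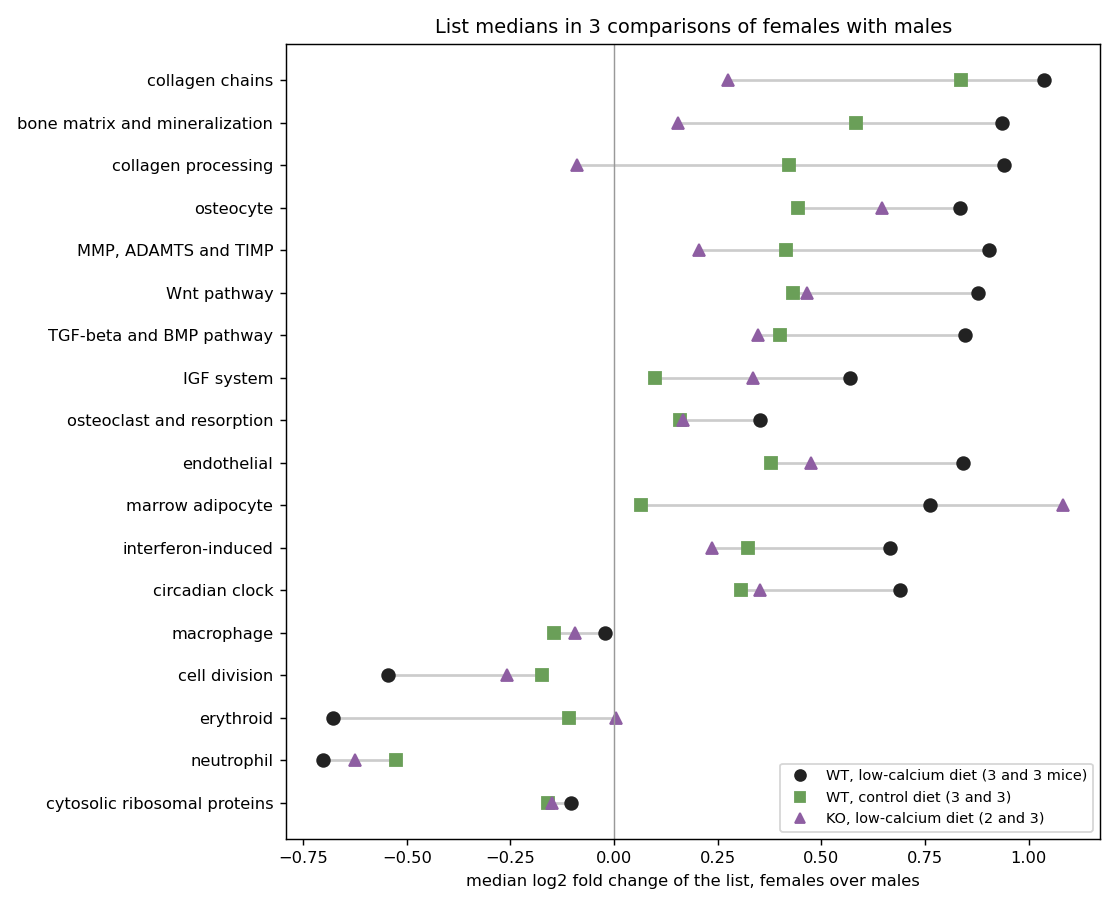
Median log2 fold change of females over males for 18 gene lists in WT mice on the low-calcium diet (circles), WT mice on the control diet (squares) and KO mice on the low-calcium diet (triangles). Collagen processing had medians of 0.94, 0.42 and -0.09 and neutrophil genes of -0.70, -0.53 and -0.62, so the first list spread more widely over the comparisons than the second.

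The medians of the bone matrix lists differed between the pairs of groups, and no test compared them. The median log2 difference of collagen chains was 1.04 in WT mice on low calcium, 0.84 on the control diet and 0.27 in KO mice on low calcium (0.28 without female 5). For bone matrix and mineralization it was 0.94, 0.58 and 0.15 (0.20 without female 5), and for collagen processing 0.94, 0.42 and -0.09 (-0.05 without female 5). In KO mice on low calcium *Alpl* was at 4259 and 4859 in females and 6099, 2026 and 5943 in males, so that male 29 stood below the rest, and *Tnfsf11* was at 219 and 242 against 236, 174 and 198. Erythroid genes had medians of -0.68, -0.11 and 0.00 (-0.03 without female 5), and neutrophil genes of -0.70, -0.53 and -0.62 (-0.65 without female 5).

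The differences between these comparisons were tested gene by gene. Between diets in WT mice the sex difference itself differed at 25 of 15056 genes (0.166%), 15 of which were in the hepatocyte list. That list does not hold every liver gene. The rest were *Itih4*, *Hrg*, *Plg*, *Gc*, *Azgp1*, *Mug1*, *Ces1c* and *Ces3a*, which are also made in the liver, and *Ttn* and *Cmtm3*. In the reduced set 7 of the 25 were called. The count was 321 without WT low-calcium female 17. Between WT and KO mice on low calcium it differed at 1 gene (0.00664%), *Tmem214*, which encodes a membrane protein of the endoplasmic reticulum. It was at 1314, 1234 and 1369.8 in WT females and 1049.6, 1073 and 1057 in WT males, but at 938 and 912 in KO females 5 and 6 and 1212, 1078 and 1169 in KO males (difference of log2 fold changes 0.62 ± 0.10, adjusted p = 0.0462; not called without female 5, adjusted p = 0.361). This count rested on single libraries in both directions. It was 889 without KO male 29, 643 without WT female 17 and 0 in the reduced set, and DESeq2 called 250. *Serpina3n* and *Copg1*, a coat protein of Golgi vesicles, came next and did not pass (adjusted p = 0.0648 for each). *Serpina3n* was at 271 and 215 in KO females 5 and 6 and 233, 239.9 and 265 in KO males. The KO sexes overlapped, with female 5 above and female 6 below every KO male. The part of the Y-linked RNA in the library of female 5 in these values was not tested. With all libraries, none of the collagen, bone matrix or resorption genes named above passed limma's test of the difference between diets or genotypes. Since these counts moved with single libraries, the absence of a call does not show equal sex differences.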

How the data were processed

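RNA sequencing measured total RNA of long bone in 23 libraries, prepared with a KAPA total RNA kit and sequenced as 100 base paired reads. The submitters' processing notes name FastQC 0.11.5, STAR 2.7.10a and DESeq2, and the mouse build mm10. The study's methods name featureCounts, with strand taken into account and a mapping quality of 10 or more, and no source used here gives the annotation. The authors deposited 1 table of normalized read counts, a signal scaled between libraries, which the methods describe as DESeq2's median of ratios. No per-gene read count was used other than reads recovered from it: within each library, values were whole multiples of what 1 read is worth, and 100% came out whole within 0.01 reads.

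Groups were taken from the sample labels, which give each library a number of its own, taken here as that of a mouse. Genes at 10 or more in 2 or more libraries were kept. Of 15638 kept genes, 15056 lay on autosomes, 524 on X, 4 on Y and 54 could not be placed. Symbols were placed by GENCODE for 15045 genes, by RefSeq symbol for 86 and by RefSeq synonym for 453. Of the deposited symbols, 27 had been turned into dates and 4 rows shared a symbol. limma 3.58.1 (R 4.3.3) was fitted to log2(value + 1), with 8 group means and a trended variance over all 23 libraries, and p-values were adjusted by the Benjamini-Hochberg method over all 15638 genes. Fold changes are on this scale, which understates low genes, and the error given with ± is the standard error. Calls are at an adjusted p under 0.05. The count test of edgeR 4.0.16 on the recovered reads called 4852 autosomal genes, and DESeq2 1.42.0 was an alternative. Depth is the total of recovered reads per library. The script was tested on simulated data.

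Named genes were the 15 largest differences each way among called genes without overlap, the 4 smallest adjusted p of each of 39 lists, genes the study names, *Fndc5*, and the 10 smallest adjusted p in each difference between diets or genotypes. 28 further genes were added after their values were seen, among them *Col1a1*, *Calcr*, *Tnfrsf11b*, *Arntl* and *Pparg*. The comparison and lists were chosen with earlier results of these data known. Promoters came from RefSeq, build GRCm38.p6. Python 3.11.15 drew the figures.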

Additional observations from a re-analysis of the deposited data

Results flagged for a closer look

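Where a sex difference was compared between diets or genotypes, genes were singled out because the test of the difference itself passed. Between diets in WT mice the log2 fold change of females over males was higher on low calcium at 25 genes, 15 of them in the hepatocyte list. Other genes made in the liver were outside the list, among them *Mug1*, *Plg*, *Hrg* and *Gc*. Of the 32 measured genes of that list, 0 were higher in females on the control diet and 24 lower, with all libraries. On low calcium 7 were higher and 1 lower (4 and 0 without mice 1, 26 and 27). The log2 difference between diets was 12.6 for *Alb*, 12 for *Pzp*, a plasma protease inhibitor, 10.9 for *Cps1*, an enzyme of the urea cycle, 10.5 and 9.64 for the fibrinogen chains *Fgb* and *Fga*, and 8.5 for *Apob*, the carrier protein of lipoproteins. It was 8.12 for *Ahsg*, which encodes fetuin-A, 7.15 for *Tat*, an enzyme that degrades tyrosine, and 6.73 for *Mug1*, a plasma protease inhibitor. *Cps1* was at 149, 1362 and 96.2 in control males and 0.886, 0 and 0.812 in control females, against 0, 0 and 0 and 28.6, 8.55 and 3.57 on low calcium. *Ttn*, which encodes titin of muscle, had a difference of 2.47. Of the 25 genes, 7 were called without mice 1, 26 and 27.

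Between WT and KO mice on low calcium, 1 gene was singled out in the same way, *Tmem214*, with a difference of 0.616 on the log2 scale. In the library of KO female 6 alone it was at 912, and the test no longer passed when KO female 5 was left out.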

How the results depend on the processing

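The sex difference in WT mice on low calcium gave 4814 called genes. It gave 1018 under the threshold of the study's methods (unadjusted p under 0.01 and a log2 fold change past 1), of which 903 were higher in females, and 2937 without mice 1, 26 and 27, and leaving out 1 mouse at a time gave 3414 to 5380. Quantile normalization, library weights, edgeR, DESeq2, no filter, a pseudocount of 5 and a fit of the 2 groups alone gave 3290 to 5743. A fit without mice 16 and 17 left female 18 alone in her group, so its calls are not counted here. Higher genes made up 53.7% of the calls, 44.4% after quantile normalization (2092 higher and 2623 lower), which moved the median of all genes from 0.01 to -0.06, and 58.2% by edgeR.

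The reference comparisons were less stable. KO mice gave 387 calls, 227 under the study's threshold, 196 after quantile normalization, 1059 by DESeq2, 1486 with library weights, 24 without mice 1, 26 and 27, and 3 to 547 with 1 mouse left out (3 without female 6, 16 without female 5, 57 without male 29). WT control mice gave 277, with 670 by DESeq2, 4284 with library weights, 51 without mice 1, 26 and 27, and 91 to 401 with 1 mouse left out (91 without female 1, 97 without female 32, 111 without male 7, 156 without male 24, 180 without female 14). The difference between diets, 25 genes, came to 181 under the study's threshold, 56 with no filter, 41 after quantile normalization, 6 by edgeR, 94 by DESeq2, 1482 with library weights, 1276 without mice 16 and 17, 7 without mice 1, 26 and 27, and 17 to 321 with 1 mouse left out (321 without female 17, 48 without control male 25). The difference between genotypes, 1 gene, came to 212 under the study's threshold, 0 after quantile normalization, 250 by DESeq2, 1796 with library weights, 1155 without mice 16 and 17, 0 without mice 1, 26 and 27, and 0 to 889 with 1 mouse left out (889 without KO male 29, 643 without WT female 17, 0 without any of the others). At an unadjusted p under 0.05, 2029 genes differed between genotypes by limma. The library weights were largest for control female 1, at 10.3 beside 0.915 and 0.795 for her group mates, and for male 26, at 3.09. The cause of the shifts in these counts was not tested.

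Of 240 named genes 206 were called, and 172 of these were still called without mice 1, 26 and 27, 200 by edgeR and 202 by DESeq2. Under every alternative, 1 of which kept only female 18 of her group, 141 of the 206 were called. *Csf1r*, the receptor of the cytokine CSF1, was 0.41 higher in females on the log2 scale (adjusted p = 0.0369). Its log2 fold change was -0.0672 without mice 16 and 17, which left female 18 alone in her group. No paired analysis was possible because every mouse has a number of its own and no number is shared between groups. The removal of mice 1, 26 and 27 was chosen after the data had been seen.

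The depth of 7217601 reads in female 17 limits genes near a count of 10, and the median spread within a group was 0.171 on the log2 scale in WT females on low calcium against 0.0683 in the males.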
